A study of Mus musculus with 2 samples.

Results

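The 45 genes described here are effectors and regulators of the interferon response, chosen by symbol from a list, and all 45 were found among the 23227 gene symbols of the authors' deposited comparison. Polyadenylated RNA was compared between a Dicer knockout line (KO, Dicer -/-) and a Dicer wild-type line (WT, Dicer f/f) of immortalised adult murine mesenchymal stem cells, which the labels also call fibroblasts. Both lines are monoclonal, so a difference between the genotypes and a difference between 2 clones cannot be told apart. Both were grown in Alpha-MEM with serum and lysed before confluence, and the labels name no added interferon or other agent. The labels give 1 sample per genotype, but the deposited means resolve into 2 libraries per genotype, called deeper and shallower here after their total reads. These names only rank the libraries within a genotype, and nothing in the labels says whether they came from separate cultures. Which deposited mean is KO was read from the order of names in the comparison's title, and every direction given rests on that reading.

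Type I interferons are secreted proteins that cells make when they sense foreign nucleic acid. They bind a receptor whose Janus kinases phosphorylate STAT proteins, among them STAT2, which joins IRF9 in a complex that binds the interferon-stimulated response element (ISRE) of target promoters. The targets degrade viral RNA, block translation or viral entry, attack vacuoles that hold pathogens, or feed back on the signal. Interferon gamma, a separate ligand, acts mainly on another element, the GAS. Dicer, the ribonuclease deleted in the KO line, processes microRNA precursors and long double-stranded RNA, and the comparison asks how messenger RNA levels differ without it.

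As a group the interferon-stimulated genes were higher in the KO line. Of the 45, 24 rose (adjusted p below 0.1 in the authors' deposited table), where 3.91% of the 17303 genes with a read were called higher. The list was chosen with earlier results of these data known, so the shares over all genes are given as description and not as a test. None of the 45 fell in the authors' deposited table (DESeq), where 3.96% of genes were called lower. At an unadjusted p below 0.05 only Ifit2 was lower, and limma on the recovered libraries also called 0 lower at an adjusted p of 0.1, where it called 8.67% of genes lower. The remaining 21 did not pass, 16 of them with a ratio above 1 and 5 with a ratio below 1. The side of 1 depended on 1 library for 5 of the 21 (Mx1, Samhd1, Ifitm1, Iigp1 and Rtp4). Among the 38 members with a mean of at least 20 normalised reads 23 rose, where 5.56% of the 11710 genes past that minimum did; limma called 23 of them higher, where it called 9.13%. In 31 of the 38 the lower KO library still exceeded the higher WT library, as in 30.4% of all genes past the minimum. The reverse held for Ifit2 and Irgm1, as in 28.8% of all genes. The median log2 ratio of KO over WT was 1.81 over these 38 genes and -0.01 over all 11710. The other 7 genes (Oas1b, Oas1g, Oas2, Oas3, Mx1, Mx2 and Ifitm1) lay under the minimum, and of these Oas1g rose in the authors' deposited table. Excluding the genes with 0 to 3 reads in WT, the 21 genes that rose did so by 2.26-fold to 33.0-fold, with a median of 3.95-fold. In bulk RNA more cells that carry a transcript and more of it per cell cannot be told apart.

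The recovered libraries held 15718369 and 14969532 reads in genes for KO and 15369250 and 14135422 for WT. Dicer1 had 573 and 557 normalised reads in the KO libraries and 804 and 943 in the WT libraries, a ratio of 0.647 with adjusted p = 0.497 by the authors' deposited table. Both KO libraries of Dicer1 lay below both WT libraries, as in 28.8% of all genes past the minimum, but the difference did not pass. Dicer1 therefore does not settle which deposited mean is KO. Reads of single exons were not examined, so loss of the deleted exons was not tested. The 12 mesenchymal markers varied widely, and Col1a1 and Pdgfrb were among those abundant in both lines. Nt5e and Ly6a were far less abundant, with means of 126 and 138 normalised reads in KO and 119 and 97.5 in WT. Thy1 had 0 reads in all 4 libraries. Of the 12 markers Vcam1 rose, and Col1a1 and Col1a2 fell, in the authors' deposited table. Markers of blood cells summed to 238 and 224 normalised reads in KO and 153 and 177 in WT over 12 genes, of which 8 had reads, and most came from Cd14. Cd3e, Siglech and Itgax were at 0 in all libraries and Ptprc was near 0, with 1.46 normalised reads in KO and 0.561 in WT. Endothelial markers summed to 22.1 and 24.9 in KO and 22.2 and 14.6 in WT over 7 genes, and epithelial markers to 33.1 and 54.7 in KO and 16.4 and 71.8 in WT over 6. The part of these cells in the results was not tested.

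**Figure D1:**
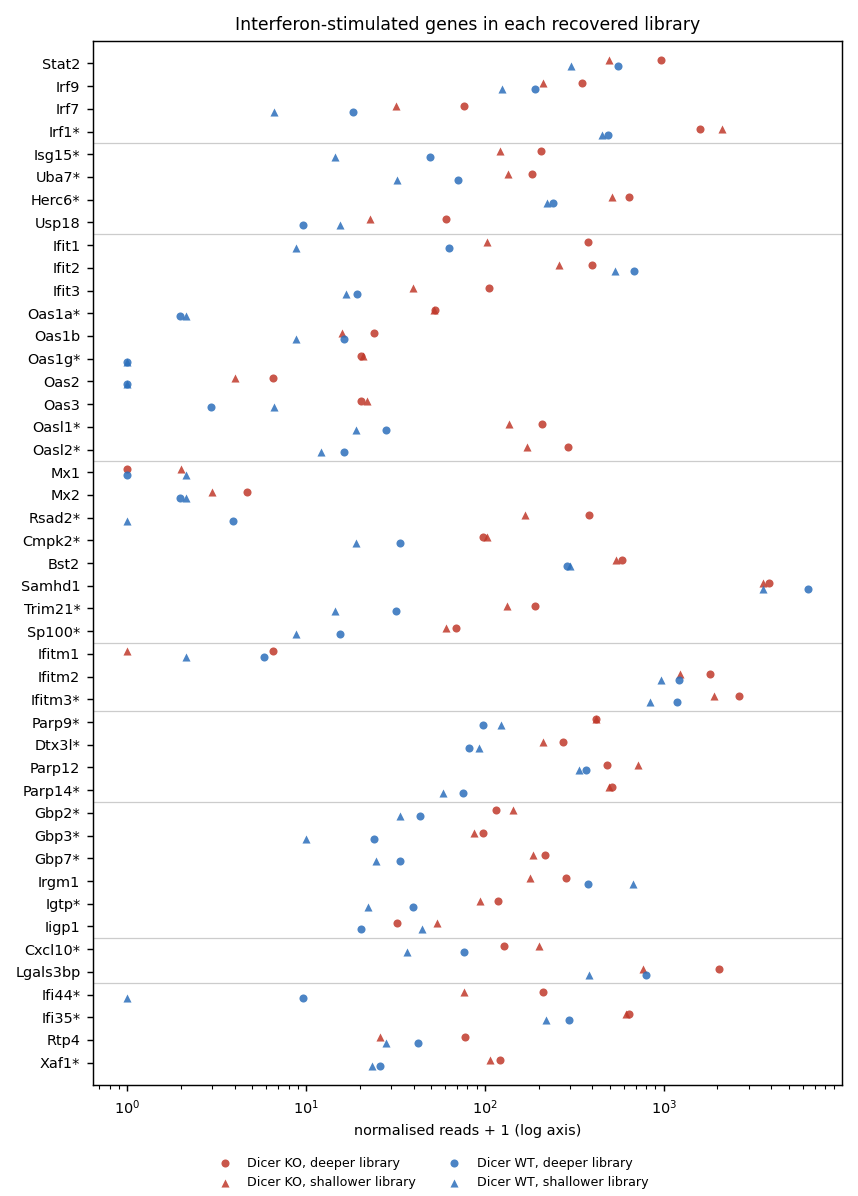
Normalised reads plus 1 (log axis) of the 45 genes in the 2 Dicer KO libraries (red) and the 2 Dicer WT libraries (blue), with circles for the deeper and triangles for the shallower library, asterisks for genes with adjusted p below 0.1 in the authors' table and lines between roles. Both KO points lie right of both WT points for 35 genes and left of them for 2, Ifit2 and Irgm1. The 35 include thinly covered genes such as Oas2 and Mx2, with 9 and 6 KO reads. Among the 38 genes with a mean of at least 20 normalised reads the numbers are 31 and 2, where the shares over all genes are 30.4% and 28.8%.

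Promoter sequences were searched for the ISRE core and for a GAS-type motif. The genes were chosen by symbol as members of the interferon response, whose target promoters carry such elements. A larger share with a motif than over all genes can therefore follow from the choice alone. The shares are given as description, and nothing about the KO line is read from them. RefSeq promoter windows of 300 bases (250 before and 50 from the annotated start, build GRCm38.p6) were matched for 36 of the 45 genes. Windows for Iigp1, Parp9, Oas1b, Rtp4, Oas2, Mx1, Parp14, Usp18 and Mx2 were not matched. The ISRE core was searched as GAAANNGAAA on both strands, and 18 of the 36 genes (50.0%) held it, against 3.99% of all 27025 genes with a window and 3.60% of the 8428 of them past the minimum mean. By windows, 18 of 41 (43.9%) held it, against 3.44% of all 32851. It stood in 11 of 22 genes that rose and in 7 of 14 that did not pass, so its presence did not separate these. A GAS-type motif, TTCNNNGAA, which reads the same on both strands, stood in 9 of 36 genes (25.0%), against 9.55% of all genes, and it overlapped an ISRE core in Ifitm3 and Bst2. A match describes letters in a window and does not show binding. The 4 windows printed are those of the genes that rose most among those with an ISRE core, in gene orientation, with the core in capitals. The windows are Rsad2 at chr12:26456403-26456702 on the minus strand, Oas1a at chr5:120907476-120907775 on the minus strand, Oas1g at chr5:120887564-120887863 on the minus strand and Trim21 at chr7:102565433-102565732 on the minus strand.
Rsad2: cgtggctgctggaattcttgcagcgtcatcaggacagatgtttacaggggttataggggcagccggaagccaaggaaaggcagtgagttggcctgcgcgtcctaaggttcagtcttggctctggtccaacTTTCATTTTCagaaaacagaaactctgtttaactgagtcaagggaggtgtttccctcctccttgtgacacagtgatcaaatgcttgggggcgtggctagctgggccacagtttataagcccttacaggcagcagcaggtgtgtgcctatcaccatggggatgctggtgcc
Oas1a: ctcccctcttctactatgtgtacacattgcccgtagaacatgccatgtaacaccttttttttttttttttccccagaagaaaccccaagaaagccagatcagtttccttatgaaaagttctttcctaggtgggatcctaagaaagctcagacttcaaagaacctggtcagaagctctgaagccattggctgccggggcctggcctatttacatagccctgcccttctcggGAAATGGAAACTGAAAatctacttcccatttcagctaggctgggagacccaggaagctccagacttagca
Oas1g: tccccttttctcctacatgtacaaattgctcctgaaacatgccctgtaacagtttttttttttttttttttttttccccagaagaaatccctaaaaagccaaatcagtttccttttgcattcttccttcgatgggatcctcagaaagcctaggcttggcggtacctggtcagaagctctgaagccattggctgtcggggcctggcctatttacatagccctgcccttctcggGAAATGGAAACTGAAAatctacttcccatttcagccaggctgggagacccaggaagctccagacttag
Trim21: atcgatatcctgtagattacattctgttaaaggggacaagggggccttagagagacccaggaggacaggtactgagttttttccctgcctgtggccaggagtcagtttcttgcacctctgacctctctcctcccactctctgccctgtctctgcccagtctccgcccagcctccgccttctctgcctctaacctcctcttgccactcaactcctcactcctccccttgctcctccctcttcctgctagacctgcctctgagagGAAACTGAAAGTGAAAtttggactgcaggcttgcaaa

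The core of Rsad2 lay on the other strand, 120 to 111 bases before the start. Oas1a and Oas1g carried the same pair of overlapping cores just upstream of the start, from base -20 to -5 in Oas1a and from -18 to -3 in Oas1g. In Trim21 the overlapping cores lay downstream of the start, from base 13 to base 28. Isg15 held 3 overlapping matches between -78 and -57, the most in any of the 18 genes.

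**Figure D2:**
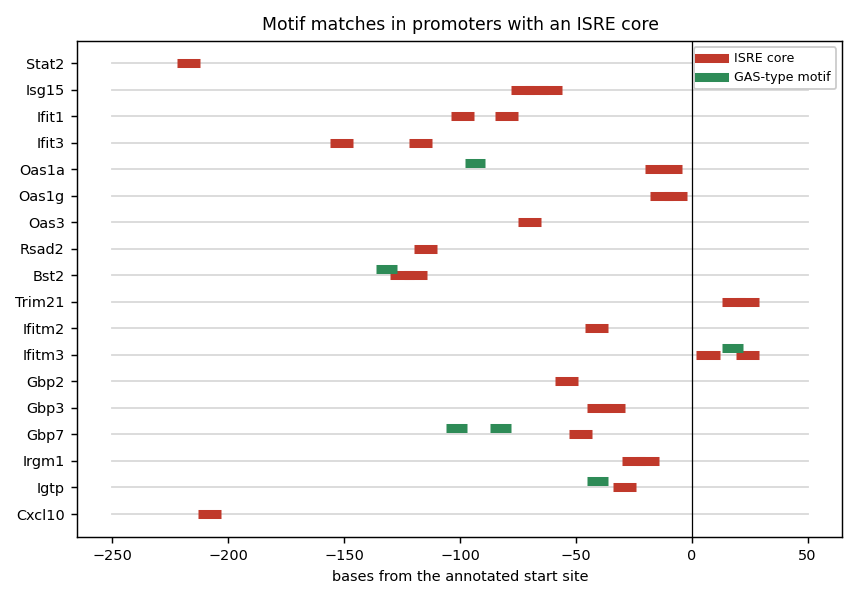
Positions of the ISRE core (red) and of the GAS-type motif (green) along the promoter windows of the 18 genes with an ISRE core, in bases from the annotated start site (vertical line); grey lines span the windows. Most matches lie upstream of the start, and those of Trim21 and Ifitm3 lie downstream.

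Counts of genes that rose are given below for each role, where 24 of all 45 members and 3.91% of all genes with a read rose. The roles hold few genes, so nothing is read from differences between their counts. Of the 4 transcription factors of the pathway, 1 rose. Irf1, which interferon gamma strongly induces, had 1589 and 2115 normalised reads in the deeper and the shallower KO library, against 488 and 449.6 in WT. Both KO values were far above both WT values, and Irf1 rose 3.95-fold with counting bounds of 3.67 and 4.25 (adjusted p = 6.32e-06 by the authors' deposited table). Counting intervals (95%, exact Clopper-Pearson) cover counting error alone. Irf7, which drives the interferon alpha genes, had 75.4 and 30.8 in KO and 17.4 and 5.61 in WT, a ratio of 4.63 that did not pass (adjusted p = 0.375 by the authors' deposited table). Its libraries did not overlap between genotypes but differed 2.45-fold within KO and 3.10-fold within WT, and the ratio was 2.69 without the deeper KO library, 9.48 without the deeper WT library and 3.06 without the shallower WT library. Stat2 and Irf9, which belong to the ISRE-binding complex, had ratios of 1.71 and 1.77 (adjusted p = 0.829 and 0.564 by the authors' deposited table). Stat2 was at 968 and 494 in KO and 551 and 303 in WT, so its genotypes overlapped, whereas those of Irf9 did not, at 347 and 209.96 in KO and 191 and 123 in WT.

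Genes of ISG15 conjugation, the attachment of a ubiquitin-like protein to target proteins, rose in 3 of 4 cases. Isg15 itself had 204 and 120.4 normalised reads in KO and 48.2 and 13.5 in WT, and rose 5.27-fold (4.01 to 7.02; adjusted p = 0.0257 by the authors' deposited table). The ratio of Isg15 was 12.1 without the deeper and 3.37 without the shallower WT library. It was 3.91 without the deeper and 6.62 without the shallower KO library. Uba7, the activating enzyme for ISG15, had 183 and 134 in KO and 69.4 and 31.4 in WT, and rose 3.15-fold (adjusted p = 0.0217 by the authors' deposited table), or 5.06-fold without the deeper WT library. Herc6, the ISG15 ligase of the mouse, had 636 and 516 in KO and 240.0 and 223 in WT, and rose 2.49-fold (adjusted p = 0.0155 by the authors' deposited table). Libraries of 1 genotype were closest for Herc6 among these genes. Usp18, which removes ISG15 and restrains the interferon receptor, had 59.8 and 21.9 in KO and 8.68 and 14.6 in WT, a ratio of 3.51 that did not pass (adjusted p = 0.545 by the authors' deposited table) and was 1.88 without the deeper KO library.

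Of the RNA-binding IFIT and OAS genes, 4 of 10 rose, all of them in the OAS family. Some proteins of this family, though not all, make oligoadenylates that activate RNase L. Oas1a had 51.5 and 50.7 normalised reads in KO and 0.964 and 1.12, or 1 read each, in WT. The ratio was 49.0 with counting bounds of 13.2 and 410.2 (adjusted p = 2.30e-05 by the authors' deposited table). Oas1g had 19.3 and 19.9 in KO and 0 reads in WT (adjusted p = 0.0132 by the authors' deposited table). Its KO mean was 12.5-fold above a floor of 3 reads over both WT libraries. The counting bound under the ratio, which also takes in the error of the KO reads, was smaller, at 9.76. The KO libraries agreed closely for both genes, but Oas1a and Oas1g are close paralogs and reads could have been split between them. Oasl2 had 292 and 170.2 in KO and 15.4 and 11.2 in WT, and rose 17.3-fold (11.7 to 26.8; adjusted p = 6.99e-05 by the authors' deposited table). Oasl1, which in mice restrains translation of Irf7, had 209 and 135 in KO and 27.0 and 17.9 in WT, and rose 7.66-fold (5.59 to 10.7; adjusted p = 8.73e-05 by the authors' deposited table). No library of one genotype came near those of the other for Oasl1 or Oasl2.

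The other OAS genes were thinly covered. Oas3 had 19.3 and 20.9 normalised reads in KO and 1.93 and 5.61 in WT (ratio 5.34, or 10.4 without the shallower WT library; adjusted p = 0.319 by the authors' deposited table), and Oas2 had 5.52 and 2.99 in KO and 0 reads in WT (adjusted p = 0.786 by the authors' deposited table). Oas1b had 23.0 and 14.9 in KO and 15.4 and 7.85 in WT, which overlapped. None of the 3 genes of IFIT proteins, which bind viral RNA, passed. Ifit1 had 374 and 102 in KO and 61.7 and 7.85 in WT, a ratio of 6.86 (adjusted p = 0.532 by the authors' deposited table). Its spread within a genotype was wide, and the ratio was 30.4 without the deeper WT library and 2.95 without the deeper KO library. Ifit3 had 104 and 38.8 in KO and 18.3 and 15.7 in WT, a ratio of 4.20 (adjusted p = 0.442 by the authors' deposited table), and 2.28 without the deeper KO library; a near copy, Ifit3b, could share its reads. Ifit2 lay the other way, at 396 and 259.7 in KO and 682 and 535 in WT, a ratio of 0.539 (adjusted p = 0.181 by the authors' deposited table). Both KO libraries of Ifit2 were below both WT libraries, as in 28.8% of all genes past the minimum.

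Among antiviral restriction factors 4 of 8 rose. Rsad2 (viperin), which makes a nucleotide that stops viral RNA synthesis, had 383 and 166 normalised reads in KO and 2.89 and 0 in WT. With 3 WT reads in all, the ratio of 189.8 had wide bounds, 64.6 and 923 (adjusted p = 2.66e-04 by the authors' deposited table). It was 94.9 if the shallower WT library was left out and 115 if the deeper KO library was. Cmpk2, a mitochondrial nucleotide kinase whose gene lies beside Rsad2, had 96.6 and 102 in KO and 32.8 and 17.9 in WT, and rose 3.93-fold (adjusted p = 0.0192 by the authors' deposited table). Trim21, a ubiquitin ligase and cytosolic antibody receptor, had 189 and 132 in KO and 30.8 and 13.5 in WT, and rose 7.27-fold (5.30 to 10.2; adjusted p = 1.46e-05 by the authors' deposited table), or 12.0-fold without the deeper WT library. Sp100, a component of nuclear bodies, had 68.1 and 59.7 in KO and 14.5 and 7.85 in WT, and rose 5.73-fold (adjusted p = 0.0132 by the authors' deposited table). In all 4 genes both KO libraries exceeded both WT libraries, as in 30.4% of all genes past the minimum. This held for all 24 members that rose.

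The remaining restriction factors did not pass. Bst2 (tetherin), which holds budding virions at the cell surface, had 585 and 540.3 in KO and 286 and 300.5 in WT, a ratio of 1.92 (adjusted p = 0.148 by the authors' deposited table). Bst2 libraries were tight within each genotype, and limma on the recovered libraries gave adjusted p = 0.0472. Samhd1, which hydrolyses deoxynucleotides, had 3891 and 3598 in KO and 6445 and 3583 in WT, which overlapped. Mx1 and Mx2, dynamin-like GTPases that are defective in many laboratory strains, had at most 3.68 normalised reads in any library.

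Of the interferon-induced transmembrane proteins, which hinder fusion of viral and cell membranes, Ifitm3 rose. It had 2655 and 1917 normalised reads in KO and 1190.5 and 836 in WT, a ratio of 2.26 (2.14 to 2.38; adjusted p = 0.0274 by the authors' deposited table). Ifitm2 had 1823 and 1239 in KO and 1217 and 972 in WT, a ratio of 1.40 (adjusted p = 0.684 by the authors' deposited table). Ifitm1 had 6 reads in each genotype. The KO libraries of Ifitm2 lay only just above the WT ones, and Ifitm2 and Ifitm3 are similar enough that reads could be assigned to either.

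Of the genes of ADP-ribosylation, 3 of 4 rose. Parp14, a mono-ADP-ribosyltransferase, had 511 and 495 normalised reads in KO and 74.2 and 57.2 in WT, and rose 7.66-fold (6.37 to 9.27). Its adjusted p of 2.33e-09 by the authors' deposited table was the lowest of the 45 genes. Parp9 had 419 and 417 in KO and 96.4 and 122 in WT, and rose 3.82-fold (adjusted p = 1.51e-04 by the authors' deposited table). Dtx3l, the ubiquitin ligase that pairs with PARP9 in a complex, had 273 and 211 in KO and 81.0 and 91.9 in WT, and rose 2.80-fold (adjusted p = 0.0169 by the authors' deposited table). In RefSeq the genes Dtx3l and Parp9 overlap by 558 bases, and reads from the overlap cannot be told apart unless the counting used strand, which is not given in the sources used here. Parp12 had 480.1 and 722 in KO and 366 and 336 in WT, a ratio of 1.71 that did not pass (adjusted p = 0.329 by the authors' deposited table).

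The interferon-inducible GTPases, which attack vacuoles around intracellular pathogens, rose in 4 of 6 cases. The guanylate-binding protein gene Gbp7 had 217 and 185 normalised reads in KO and 32.8 and 23.5 in WT, and rose 7.14-fold (5.38 to 9.64; adjusted p = 3.17e-06 by the authors' deposited table). Gbp3 had 96.6 and 85.6 in KO and 23.1 and 8.97 in WT, and rose 5.67-fold (adjusted p = 0.00307 by the authors' deposited table), or 10.2-fold without the deeper WT library. Gbp2 had 115 and 143 in KO and 42.4 and 32.5 in WT, and rose 3.45-fold (adjusted p = 0.0189 by the authors' deposited table). These GTPase genes are a family of related sequences, so some reads could be shared. Igtp (Irgm3), a regulatory member of the immunity-related GTPases, had 118 and 92.5 in KO and 38.6 and 21.3 in WT, and rose 3.51-fold (adjusted p = 0.0298 by the authors' deposited table). Irgm1, another regulatory member, lay the other way with 284 and 179 in KO and 377 and 672 in WT, a ratio of 0.442 (0.396 to 0.493; adjusted p = 0.408 by the authors' deposited table). It was the only one of the 45 at least 2-fold lower in KO, where 8.56% of genes past the minimum were. Of the 38 members past the minimum, 28 were at least 2-fold higher, where 8.92% of genes were. Iigp1, an effector GTPase, had 31.3 and 52.7 in KO and 19.3 and 43.7 in WT, which overlapped.

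Of the secreted members, Cxcl10, a chemokine that attracts T cells, rose and Lgals3bp did not pass. Cxcl10 had 128 and 199 normalised reads in KO and 75.2 and 35.9 in WT, a ratio of 2.94 (adjusted p = 0.0918 by the authors' deposited table), and limma on the recovered libraries gave adjusted p = 0.112. Its ratio was 4.56 without the deeper WT library. Lgals3bp, a secreted glycoprotein, had 2035 and 767 in KO and 799 and 382 in WT, so that the shallower KO library lay below the deeper WT library (ratio 2.37; adjusted p = 0.766 by the authors' deposited table). Leaving out the deeper KO library gave a ratio of 1.30, and leaving out the deeper WT library gave 3.66.

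Among the other members Ifi44 had 211 and 75.6 normalised reads in KO and 8.68 and 0 in WT, and rose 33.0-fold (17.2 to 72.9; adjusted p = 0.0520 by the authors' deposited table). Its ratio was 16.5 without the shallower WT library and 17.4 if the deeper KO library was left out. Xaf1, an antagonist of the apoptosis inhibitor XIAP, had 121 and 106 in KO and 25.1 and 22.4 in WT, and rose 4.80-fold (adjusted p = 0.00269 by the authors' deposited table). Ifi35, which binds the related protein NMI, had 640.2 and 615 in KO and 296 and 219 in WT, and rose 2.44-fold (adjusted p = 0.0195 by the authors' deposited table). All KO libraries of these 3 genes exceeded the WT ones, as in 30.4% of all genes past the minimum. Rtp4 had 76.3 and 24.9 in KO and 41.4 and 26.9 in WT, which overlapped, and its ratio of 1.48 was 0.728 without the deeper KO library.

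**Figure D3:**
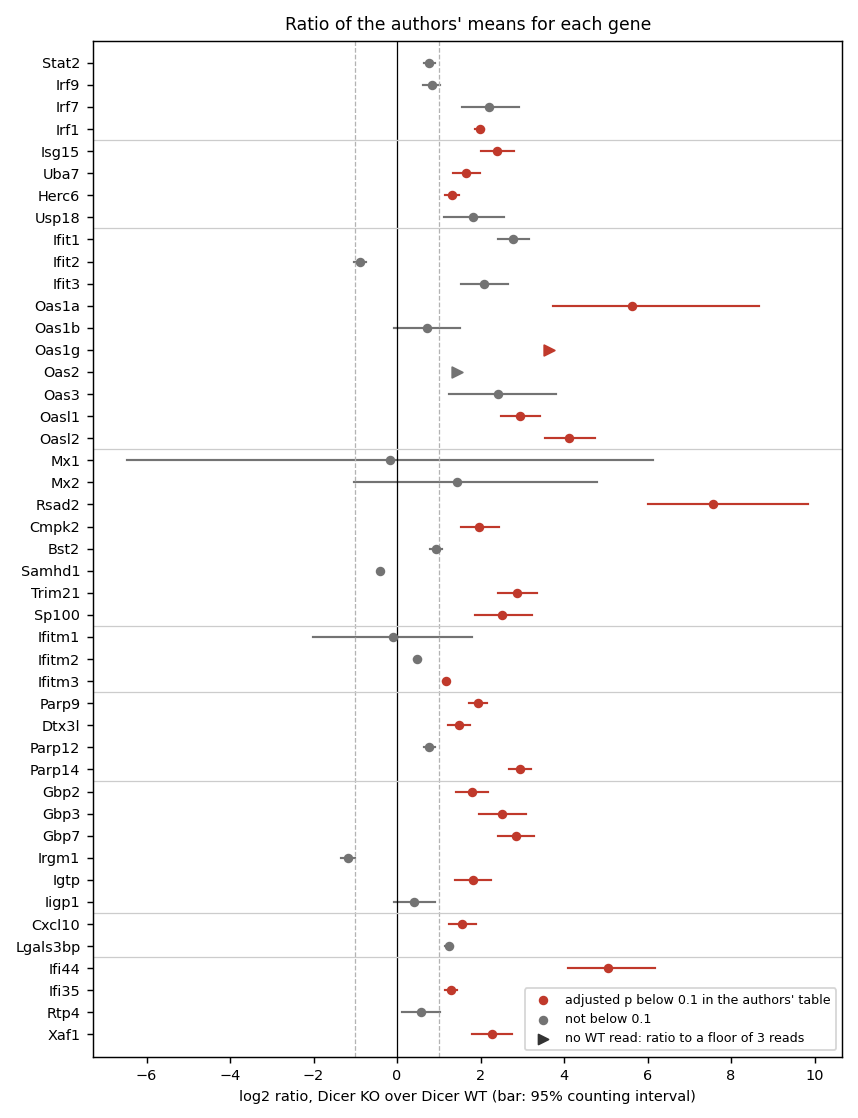
Log2 ratio of the authors' means, KO over WT, for the 45 genes, with bars for the 95% counting interval, red for adjusted p below 0.1 in the authors' table, triangles for ratios to a floor where WT had 0 reads, dashed lines at 2-fold and grey lines between roles. The 24 red genes all lie to the right of 0, and Ifit2, Samhd1 and Irgm1 lie left of it with intervals that do not reach 0.

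Members that lie side by side in the genome were compared. Among the protein-coding genes of RefSeq (GRCm38.p6), 10 pairs of members were direct neighbours, and in 6 pairs both genes rose. As 53.3% of the 45 rose in any case, nothing is read from this count. These were Rsad2 with Cmpk2, Parp14 with Dtx3l, Dtx3l with Parp9, Gbp7 with Gbp3, Oasl2 with Oasl1 and Oas1g with Oas1a, of which Dtx3l with Parp9 and Oas1g with Oas1a may share reads. Neither gene passed in 3 pairs (Ifit2 with Ifit3, Oas2 with Oas3, Ifitm2 with Ifitm1), and Ifitm3 alone rose in the pair of Ifitm1 and Ifitm3.

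Steps upstream of these genes were then described from lists of the pathway. Transcripts of the interferons themselves were not detectable beyond a few reads. Of 21 ligand genes, 17 had 0 reads in all libraries, among them Ifng, and the others (Ifnb1, Ifna13, Ifne and Ifnz) had 3 reads in KO and 5 in WT in all. A count of 0 allows up to 3 reads over both libraries of a genotype, a mean of 1.44 normalised reads in KO and 1.56 in WT. None of the ligands passed in the authors' deposited table (DESeq), also at an unadjusted p below 0.05, and none reached the minimum for limma. With so few reads a difference could hardly have passed, so nothing is read from this.

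Of 11 receptor and JAK-STAT genes, 2 rose and 0 fell in the authors' deposited table (DESeq). That comparison called 3.91% of all genes with a read higher and 3.96% lower. At an unadjusted p below 0.05, 1 was lower. On the recovered libraries limma called 1 lower, where it called 8.67% of genes past the minimum lower. With a list this short, nothing is read from the numbers that were lower. Il10rb, a receptor chain shared by interferon lambda and interleukins, had 687 and 551 normalised reads in KO and 236 and 189 in WT, and rose 2.91-fold (adjusted p = 0.00255 by the authors' deposited table). Stat3 had 2833 and 2232 in KO and 1162 and 1381 in WT, and rose 1.99-fold (adjusted p = 0.0636 by the authors' deposited table). Both genes had KO libraries clear of the WT ones, as had 30.4% of all genes past the minimum. The type I receptor genes Ifnar1 and Ifnar2 had ratios of 1.45 and 1.57, and neither passed (adjusted p = 0.619 and 0.470 by the authors' deposited table). The interferon gamma receptor chains Ifngr1 and Ifngr2 lay on either side of 1, with ratios of 0.543 and 1.53. Ifngr1 was the gene that limma called lower (limma adjusted p = 0.0485), with 587 and 622 in KO and 1205 and 1022 in WT, and it did not pass in the authors' deposited table (adjusted p = 0.149). Jak1, Jak2 and Tyk2 had ratios of 0.613, 0.869 and 1.47, and Il28ra, a chain of the interferon lambda receptor, was thinly covered at 13.3 normalised reads in KO and 8.26 in WT.

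Of 19 sensors of foreign nucleic acid and their adaptors, 5 rose and 0 fell in the authors' deposited table (DESeq). That comparison called 3.91% of all genes with a read higher and 3.96% lower. At an unadjusted p below 0.05, 0 were lower, and limma called 0 lower, where it called 8.67% of genes past the minimum lower. With a list this short, nothing is read from the absence of lower genes. Zbp1, a sensor of Z-form nucleic acid, had 45.1 and 52.7 normalised reads in KO and 0.964 and 3.36 in WT, and rose 22.6-fold (8.56 to 84.5; adjusted p = 2.48e-04 by the authors' deposited table). The kinase gene Ikbke and the endosomal double-stranded RNA receptor gene Tlr3 rose 2.80-fold and 2.79-fold (adjusted p = 0.0306 and 0.0470 by the authors' deposited table). Ddx58 (RIG-I), a cytosolic RNA sensor, and Trim25, a ubiquitin ligase of its pathway, rose 2.42-fold and 2.14-fold (adjusted p = 0.0137 and 0.0367 by the authors' deposited table). Of 7 inhibitors of interferon signalling, 2 rose and 0 fell in the authors' deposited table (DESeq), beside the same shares of 3.91% and 3.96% over all genes. At an unadjusted p below 0.05, 1 was lower. By limma 2 were lower (Pias1 and Ptpn11), where it called 8.67% of genes past the minimum lower. With 7 genes, nothing is read from the numbers that were lower. Socs3 had 1673 and 1281 in KO and 503 and 288 in WT, and rose 3.73-fold (adjusted p = 2.50e-05 by the authors' deposited table). Ptpn6, a phosphatase best known from blood cells, had 66.2 and 43.8 in KO and 2.89 and 3.36 in WT, and rose 17.6-fold (7.84 to 48.9; adjusted p = 2.31e-04 by the authors' deposited table).

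Interferon-stimulated genes outside the 45 were mostly higher in KO where they passed. Of 78 with reads, 20 rose and 3 fell in the authors' deposited table, which called 3.91% of all genes with a read higher and 3.96% lower, so the number that fell is near the background. At an unadjusted p below 0.05, 27 were higher and 5 lower. By limma 22 were higher and 4 lower, where it called 9.13% of genes past the minimum higher and 8.67% lower. The list had a median log2 ratio of 0.995 over the 49 past the minimum, against -0.01 over all 11710 genes past it. Trim30a had 80.9 and 50.7 normalised reads in KO and 3 reads in WT, a ratio of 43.2 (14.5 to 212; adjusted p = 1.79e-06 by the authors' deposited table). Tnfsf10 (TRAIL), a ligand that triggers apoptosis, had 340.3 and 161 in KO and 7.71 and 5.61 in WT, and rose 37.7-fold (adjusted p = 0.00133 by the authors' deposited table). Sp140, a paralog of Sp100, and the chemokine gene Ccl5 rose 35.6-fold and 17.0-fold (adjusted p = 1.16e-11 and 1.98e-06 by the authors' deposited table). The DNA sensor gene Aim2 had 2 WT reads and a ratio of 21.2 (5.54 to 180.3; adjusted p = 0.0414 by the authors' deposited table). In the other direction Nlrc5, a transactivator of MHC class I genes, had 45.1 and 21.9 in KO and 1852 and 638 in WT, and had a mean 37.2-fold under that of WT (adjusted p = 0.0399 by the authors' deposited table). The 2 other genes that fell, named after their values were seen, were Pml, of the same nuclear bodies as Sp100, at a ratio of 0.384, and B2m, the light chain of MHC class I, at 0.481 (adjusted p = 0.00556 and 0.0425 by the authors' deposited table).

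**Figure D4:**
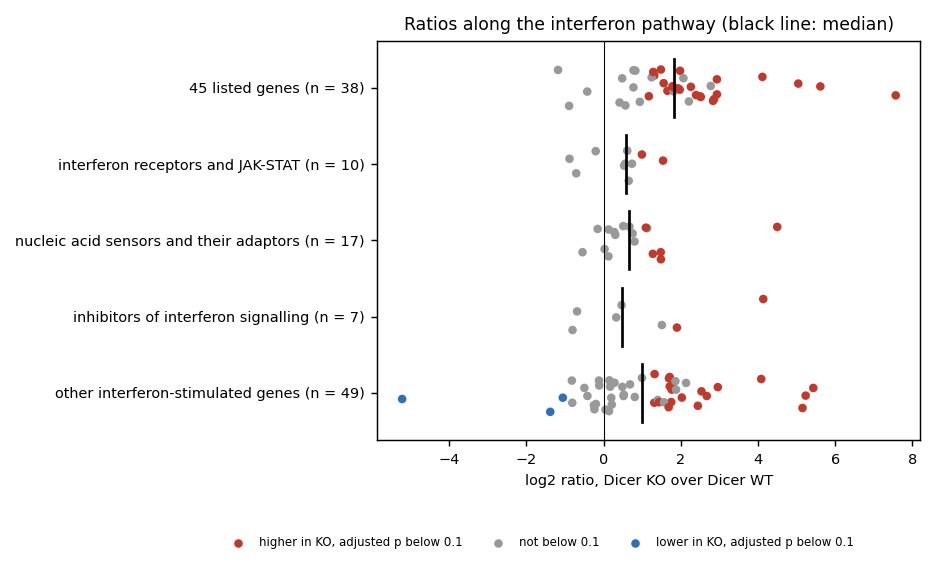
Log2 ratio of KO over WT for the listed genes and 4 pathway lists, for genes with a mean of at least 20 normalised reads, in red where higher and blue where lower in KO at adjusted p below 0.1 in the authors' table; black lines are medians and vertical scatter has no meaning. The medians lie at 1.81 for the 45 listed genes (38 plotted), 0.59 for receptors and JAK-STAT, 0.67 for sensors, 0.47 for inhibitors and 0.995 for other interferon-stimulated genes; no ligand gene passed the minimum.

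Interferon-stimulated genes also differed between libraries of the same genotype. Of the 38 genes past the minimum, 32 were higher in the deeper than in the shallower KO library and 31 were higher in the deeper than in the shallower WT library, where 51.3% and 51.6% of all genes were. At least 2-fold higher in the deeper library were 8 genes in KO and 10 in WT, against 5.67% and 5.47% of all genes. At least 2-fold lower in the deeper library were 0 in KO and 1 (Iigp1) in WT, against 3.13% and 3.59%. The median log2 ratio of deeper over shallower was 0.41 over 38 genes in KO and 0.47 over the 36 genes with reads in both WT libraries, against 0.02 and 0.01 over all genes. Ifit1 was 3.65-fold higher in the deeper KO library and 7.86-fold higher in the deeper WT library, and Irf7 2.45-fold and 3.10-fold. The difference ran the same way in both genotypes for most of the list, and what set the libraries apart was not tested. With the shallower KO library set against the deeper WT library, 32 of 38 genes still had a ratio above 1 and 24 were at least 2-fold higher, where 9.08% of all genes were. In the other 3 pairings of a KO with a WT library, 28 to 31 genes were at least 2-fold higher; these pairings share libraries.

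**Figure D5:**
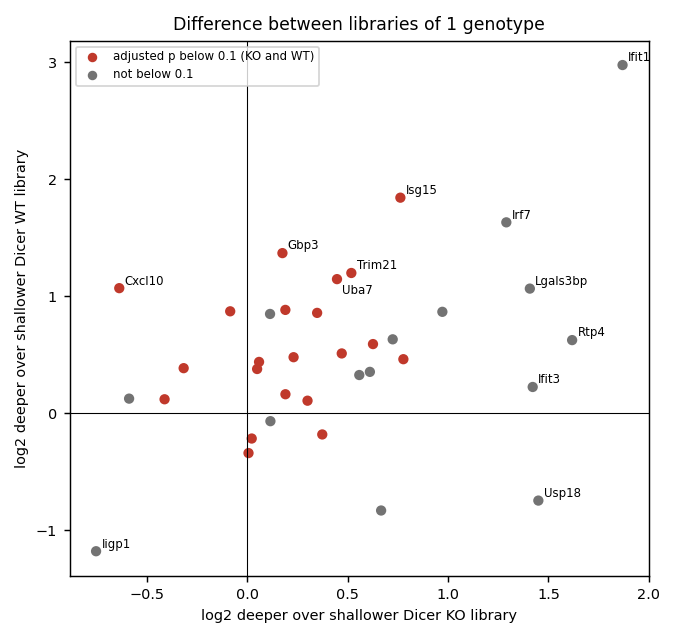
Log2 ratio of the deeper over the shallower library in KO (horizontal) and in WT (vertical) for the 36 genes with a mean of at least 20 normalised reads and reads in both shallower libraries, in red where adjusted p for KO against WT was below 0.1 in the authors' table; genes at least 2-fold apart in either genotype are named. Most points lie above and to the right of 0, and Iigp1 alone lies below and to the left of it.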

How the data were processed

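Polyadenylated RNA was sequenced as paired reads on an Illumina platform, per the labels' protocols. Per the submitters' processing notes, TopHat 1.4.0 and DESeq 1.10.1 were used with build mm9; nothing used here states the read counter, its use of strand or the annotation. Per the file headers, the deposited table holds for each gene a signal (the mean read count after division by the authors' size factors) of conditions A and B. Condition A was taken to be WT and B to be KO because the comparison's title names them in that order, and every direction rests on this. The authors also deposited the ratio of KO over WT (a fold), its log2 value, the p-value and the adjusted p-value, which were copied.

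The deposited means were resolved into whole reads of 2 libraries per genotype: exactly 1 pair of read numbers gave the mean for 100% of the 16350 genes above 0 in KO and of the 16386 in WT. Bounds and floors reflect counting error alone. limma 3.58.1 (R 4.3.3, trend) was fitted to log2(normalised reads + 1) of these libraries over genes past the minimum mean of 20, with Benjamini-Hochberg adjustment, as an alternative. Its p-values measure the spread between libraries, which may be technical. Both steps were also run on simulated data. For limma the simulated libraries varied independently, with the same dispersion for all genes. That run does not cover members with a wider or a shared spread between libraries. Sizes were called at a ratio of 2 or 0.5 with a 95% exact interval that leaves out 1. Other alternatives were thresholds, minimum means, total-read scaling, a pseudocount of 5 and leaving out each library. RefSeq promoters (GRCm38.p6, another build than the authors') were matched by symbol; 5 listed genes were found under older symbols. All 45 members are accounted for; in each pathway list the genes past the threshold are named, at most 6 by size. The members and lists were chosen with earlier results of these data known. Values of 2 listed genes are not reported here.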

Additional observations from a re-analysis of the deposited data

How the results depend on the processing

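The count of 24 members higher in KO was 22 at an adjusted p of 0.05, 23 with limma at 0.1 (with or without a minimum mean) and 16 with limma at 0.05; 22 of the 24 were called by both the authors' table and limma at 0.1. Among genes past the minimum, the authors' table called 5.56% higher and limma at 0.1 called 9.13% higher. By size, 28 members were at least 2-fold higher, where 8.92% of genes past the minimum were. The number was 22 to 32 under other thresholds, minimum means, scaling by total reads and with each library left out. Shares over all genes at the other settings are not given here, so these counts stand without their background. The number at least 2-fold lower, 1 (Irgm1), was 2 at a ratio threshold of 1.5 and 0 at 3, and ranged from 0 to 2 with 1 library left out. The median log2 ratio of 1.81 ranged from 1.49 to 2.11 over these alternatives; scaling by total reads shifted every log2 ratio by 0.06. Of the called members 7 moved by over 1.5 times without 1 library, none went below 1, 5 that were not called crossed 1, and, of the called ones, Ifitm3 alone went below 2-fold (1.89 leaving out the deeper KO and 1.92 leaving out the shallower WT library). Among receptors and JAK-STAT genes 1 was higher at an adjusted p of 0.05, and limma called 1 lower. Among inhibitors limma called 2 lower, where it called 8.67% of all genes past the minimum lower. Alternatives for the pathway lists, and limma for single genes, were chosen after seeing the data. No paired analysis was possible because the labels give 1 sample per genotype and the recovered libraries carry no numbers. Depth limits Oas2, Mx1, Mx2 and Ifitm1, which had 2 to 12 reads over all 4 libraries.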

Other observations

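Values of some genes of MHC class I antigen processing, which interferons also induce, are given beside those of Nlrc5 and B2m, which fell. All names here were picked after their values were seen, so they say nothing of the pathway as a whole. Psmb8 and Psmb10, subunits of the immunoproteasome, rose 5.80-fold and 2.50-fold in KO (adjusted p = 3.08e-05 and 0.0332 by the authors' deposited table), while Psmb9, the third such subunit, had 195 and 191 normalised reads in KO and 214 and 119 in WT, which overlapped. The peptide transporter gene Tap2 and the loading factor gene Tapbp rose 2.70-fold and 3.22-fold (adjusted p = 0.00358 and 1.27e-04 by the authors' deposited table). Tap1, the partner of Tap2, had 405 and 438 in KO and 869 and 608 in WT, a ratio of 0.570 that did not pass (adjusted p = 0.224 by the authors' deposited table). Mov10, an RNA helicase, and Ly6e, a membrane protein that modifies viral entry, rose 5.44-fold and 3.23-fold (adjusted p = 1.04e-06 and 8.65e-05 by the authors' deposited table).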
